A study of Homo sapiens with 16 samples.

Results

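The response of LNCaP cells to the androgen dihydrotestosterone (DHT) was read from the 8 of 16 libraries that came from cells carrying a control siRNA, and covered every gene of the count table, raised or lowered. LNCaP is a human prostate cancer cell line that depends on androgen for growth. A nonsense siRNA (NS), at 40 nM, was transfected as control for 24 h and the cells were then kept for another 24 h in serum-free medium with ethanol vehicle (NS-Veh, 4 libraries) or with 1 nM DHT (NS-DHT, 4 libraries). All 8 libraries therefore shared the control siRNA and the lack of serum. The other 8 libraries carried siRNA against SLIRP, an RNA-binding protein, with the same pair of treatments, and they enter here only where the DHT response is set beside that of NS cells. The replicates come from 2 experiments with 2 biological replicates each, but the labels do not tie replicate numbers to experiments.

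Androgen is a steroid hormone that enters the cell and changes transcription through DNA elements near its target genes, where coactivators or corepressors are recruited. In prostate luminal epithelium androgen drives secreted proteases of the kallikrein family, other surface and secretory products, and enzymes that make lipid, while other genes fall under androgen. LNCaP cells keep this program and divide in response to low doses of androgen.

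Between 436353 and 1521674 estimated reads per NS library were assigned to genes. NS-Veh replicates 1 and 2 were the shallowest, with 512925 and 436353 reads, and the NS-DHT libraries lay between 969196 and 1371449. Levels are given as CPM, edgeR's library-scaled counts with TMM factors, which do not correct for gene length, so values of different genes are not compared. Replicates 1 and 2 resembled each other, as did replicates 3 and 4. The chi-square of counts over its degrees of freedom was 1.24 (NS-Veh) and 1.22 (NS-DHT) between replicates 1 and 2, 1.38 and 1.30 between replicates 3 and 4, and 1.45 to 1.91 across these pairs. Fold changes within each pair are therefore given beside the pooled ones. Markers of prostate luminal epithelium summed to 4042 to 4338 CPM in NS-Veh and 4227 to 4804 CPM in NS-DHT, although KRT19 had 0 counts in all 8 libraries. Basal markers summed to 32.3 to 45.8 CPM in NS-Veh and 27.0 to 38.5 CPM in NS-DHT, with KRT5, TP63 and KRT17 at 0. Leukocyte markers stayed at 7.97 CPM or less in every library, with PTPRC, CD3E, CD3D, CD79A, MS4A1 and TYROBP at 0, endothelial markers at 18.3 CPM or less, with PECAM1, CDH5 and KDR at 0, and fibroblast and muscle markers at 36.4 CPM or less, with DCN and THY1 at 0. Neuroendocrine markers, mostly reads of ENO2 and TUBB3, summed to 102 to 117 CPM in NS-Veh and 88.5 to 101 CPM in NS-DHT, and CHGB and INSM1 were among those at 0. In RNA from whole cultures, fewer cells of a state and less RNA per cell cannot be told apart.

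The main comparison asked which genes 1 nM DHT changed in NS cells. DHT raised 88 genes and lowered 48 of the 10360 tested, at an adjusted p (FDR) of 0.01 in edgeR's quasi-likelihood test, which is 0.849% and 0.463% of genes and 1.31% in all. With the pair of replicates (1 and 2, or 3 and 4) as a term, a fit chosen after seeing the data, 293 genes were called (182 higher, 111 lower), the same 136 among them. The rises were led by kallikreins, a cold-sensing ion channel and a sialyltransferase, and included genes of DNA replication. Falls were smaller: the median log2 fold change was 0.75 among the raised genes and -0.52 among the lowered ones, and 26 genes rose but only 2 fell by at least 2-fold. The lowered genes were also better covered, with a median of 309 counts per library against 118 for the raised ones and 49.1 for all genes tested. At an unadjusted p below 0.05, 1479 genes differed, against 518 expected by chance.

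Calls depended on the depth of a gene. Of 626 genes with a mean of at least 300 counts, 5.91% were called, and more of these fell (24) than rose (13). Of 3347 genes with a mean below 30 counts, 0.269% were called, 8 higher and 1 lower, and the raised ones had a median log2 fold change of 1.57. A modest change of a weakly read gene was thus not detectable at this depth. The low-count filter asked for enough reads in as many libraries as a group holds. A weakly read gene could therefore be tested through the group where it was high, as KLK2, TRPM8 and ST6GALNAC1 were through NS-DHT. Medians and sign counts of lists that hold weakly read genes can include members admitted in this way. In 132 of the 136 called genes the NS-DHT and NS-Veh libraries did not overlap, as for 8.77% of all genes tested.

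**Figure D1:**
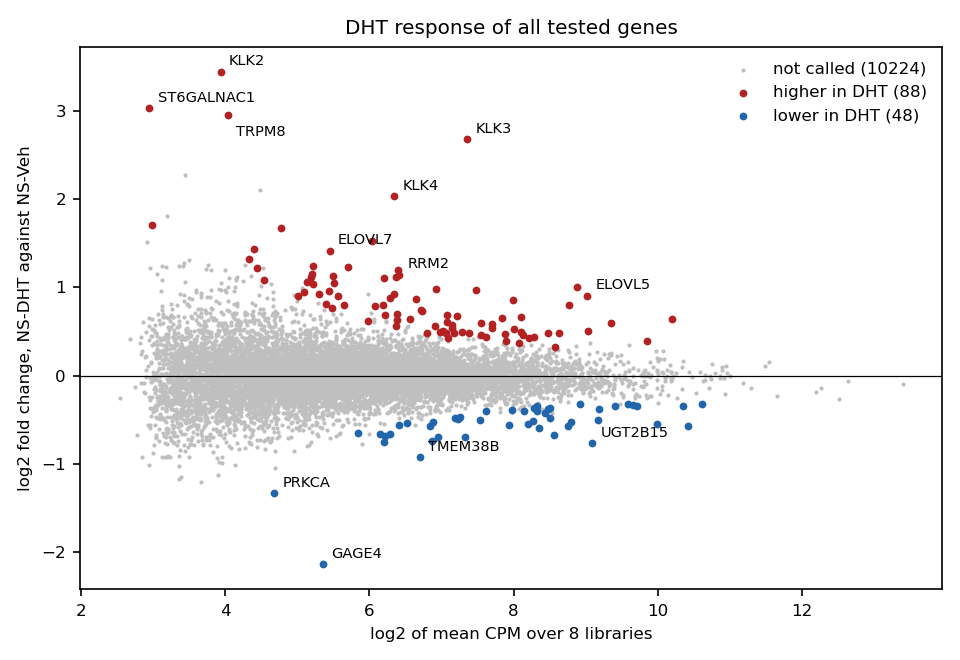
Each point is 1 of the 10360 genes tested; the x axis is the log2 of its mean CPM over the 8 NS libraries and the y axis its log2 fold change in NS-DHT against NS-Veh. Red points (88) were called higher and blue points (48) lower at an edgeR FDR of 0.01. The kallikreins and TRPM8 stand above all other called genes except ST6GALNAC1, and the falls lie close to 0 at high CPM.

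The promoters of the pair of genes that led the response, KLK3 and KLK2, are shown because both genes rose together and are near copies of each other. KLK3 encodes prostate-specific antigen and KLK2 the related protease hK2; KLK3 lies at chr19:51358171-51364020 and KLK2 at chr19:51364824-51383823 of hg19, side by side on the plus strand. The RefSeq promoter windows run from 250 bases before to 50 bases after the start on GRCh38.p14 (KLK3 chr19:50854665-50854964, KLK2 chr19:50873189-50873488, both plus strand). Capitals mark the longest run of bases that both windows share, 80 bases, which begins 154 bases before the KLK3 start and 160 before the KLK2 start.
KLK3: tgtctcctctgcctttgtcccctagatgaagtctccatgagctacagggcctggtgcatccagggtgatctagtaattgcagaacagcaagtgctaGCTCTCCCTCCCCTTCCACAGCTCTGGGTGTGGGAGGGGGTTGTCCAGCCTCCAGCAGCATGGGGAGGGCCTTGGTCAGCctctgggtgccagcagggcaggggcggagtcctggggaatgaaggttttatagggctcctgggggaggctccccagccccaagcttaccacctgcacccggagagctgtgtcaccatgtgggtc
KLK2: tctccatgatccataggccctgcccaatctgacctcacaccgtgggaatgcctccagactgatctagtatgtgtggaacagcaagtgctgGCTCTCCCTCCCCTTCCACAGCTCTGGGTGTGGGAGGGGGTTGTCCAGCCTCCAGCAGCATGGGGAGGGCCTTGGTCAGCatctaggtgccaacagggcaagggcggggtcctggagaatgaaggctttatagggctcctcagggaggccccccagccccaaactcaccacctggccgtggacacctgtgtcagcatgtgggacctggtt
Without gaps, the windows matched at 225 of 294 aligned bases (76.5%). AGAACA, a short word of the androgen response element, searched on both strands (TGTTCT on the other), stood in the KLK3 window 170 bases before the start. The exact word was not in the KLK2 window, which read GGAACA at the same distance before the shared run. The search took exact words only, so it does not show that the KLK2 promoter lacks the element. The word was in the promoters of 9 of 66 raised genes with a RefSeq window (13.6%) and 6 of 36 lowered genes (16.7%), against 1053 of 8450 tested genes (12.5%) and 14.8% of all windows. The shares in raised and lowered genes were thus close to that of all tested genes, and this says nothing about distant elements.

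Secreted and surface products of prostate epithelium held the largest rises. Of 23 genes on this list, 15 had enough reads to be tested. Of these, 7 were higher in DHT and none lower, against 0.849% and 0.463% of all genes. The median log2 fold change was 0.69 over the 15, against 0.00 over all genes tested. All gene lists were chosen with earlier results of these data known, so the share called within a list is only a description. KLK3 stood at 29.9, 25.7, 50.2 and 52.5 CPM in NS-Veh replicates 1 to 4 and at 323, 326, 246 and 254 CPM in the same order in NS-DHT. The lowest DHT library was thus well above the highest vehicle library (log2 fold change 2.68, SE 0.14, edgeR adjusted p = 6.36e-15), with the 2 shallow vehicle libraries lowest. The log2 fold change was 3.53 in replicates 1 and 2 and 2.28 in replicates 3 and 4.

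KLK2 was read rarely without androgen. It had 1, 1, 2 and 5 counts in NS-Veh replicates 1 to 4, 9 in all, and 35, 35, 28 and 34 counts in NS-DHT, or 1.99, 2.34, 1.32 and 4.04 CPM against 36.4, 26.9, 24.4 and 24.9 CPM. Its log2 fold change was the highest of the called genes (log2 fold change 3.44, SE 0.37, edgeR adjusted p = 1.49e-07) and rests on these few vehicle reads. KLK4, a further kallikrein of the same cluster (chr19:51409607-51414651, minus strand), stood at 25.9, 18.7, 38.3 and 33.9 CPM in NS-Veh and 148, 155, 97.5 and 133 CPM in NS-DHT (log2 fold change 2.03, SE 0.16, edgeR adjusted p = 4.61e-10). The groups did not overlap for either gene, and the response of KLK4 was also stronger in replicates 1 and 2 (2.74) than in replicates 3 and 4 (1.67). Reads of KLK2, KLK3 and the pseudogene KLKP1 can be assigned to each other, since the genes are near copies. KLKP1 was too rare to be tested, at 0, 1, 1 and 0 counts in NS-Veh and 6, 9, 7 and 9 counts in NS-DHT. KLK15 had 1 count in a single library of each group.

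TRPM8, a cation channel that opens in the cold and with menthol, rose from 7.97, 2.34, 1.98 and 4.04 CPM to 36.4, 28.5, 27 and 22.7 CPM (log2 fold change 2.95, SE 0.35, edgeR adjusted p = 1.04e-06; 13 counts in all vehicle libraries and 134 in all DHT libraries). SLC45A3, also known as prostein, rose from 63.7, 49.1, 52.2 and 42 CPM to 137, 133, 103 and 93.1 CPM (log2 fold change 1.20, SE 0.15, edgeR adjusted p = 2.42e-06). TMPRSS2, a serine protease of the luminal cell surface, rose from 89.6, 70.2, 112 and 122 CPM to 173, 194, 148 and 166 CPM (log2 fold change 0.69, SE 0.12, edgeR adjusted p = 3.85e-04), and its log2 fold change was 1.19 in replicates 1 and 2 and 0.42 in replicates 3 and 4. No library of one group entered the range of the other for these 3 genes. The remaining call was PPAP2A, a lipid phosphatase, at 0.43. AZGP1, a secreted lipid-mobilizing protein, stood just outside the threshold at 1.25 (edgeR adjusted p = 0.0103) with separated groups, and DPP4, a surface peptidase, at 1.52 (edgeR adjusted p = 0.027).

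Other prostate products on the list did not pass the test. ACPP, prostatic acid phosphatase, had a log2 fold change of -0.17 (edgeR adjusted p = 0.43), FOLH1, prostate-specific membrane antigen, of -0.21 (adjusted p = 0.046), and NDRG1 of 0.02 (adjusted p = 0.97). MSMB, TGM4, NPY, STEAP4, ORM1 and CRISP3 had too few counts to be tested, and TGM4 and NPY had 0 in every library. The median of the list was 1.19 in replicates 1 and 2 and 0.44 in replicates 3 and 4, where the histone (0.75), replication (0.61) and mitosis (0.55) lists had higher medians. The number of called genes was 7 (6 higher, 1 lower) in replicates 1 and 2 alone and 6, all higher, in replicates 3 and 4 alone. Among all genes, each pair alone gave fewer calls than the main comparison.

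**Figure D2:**
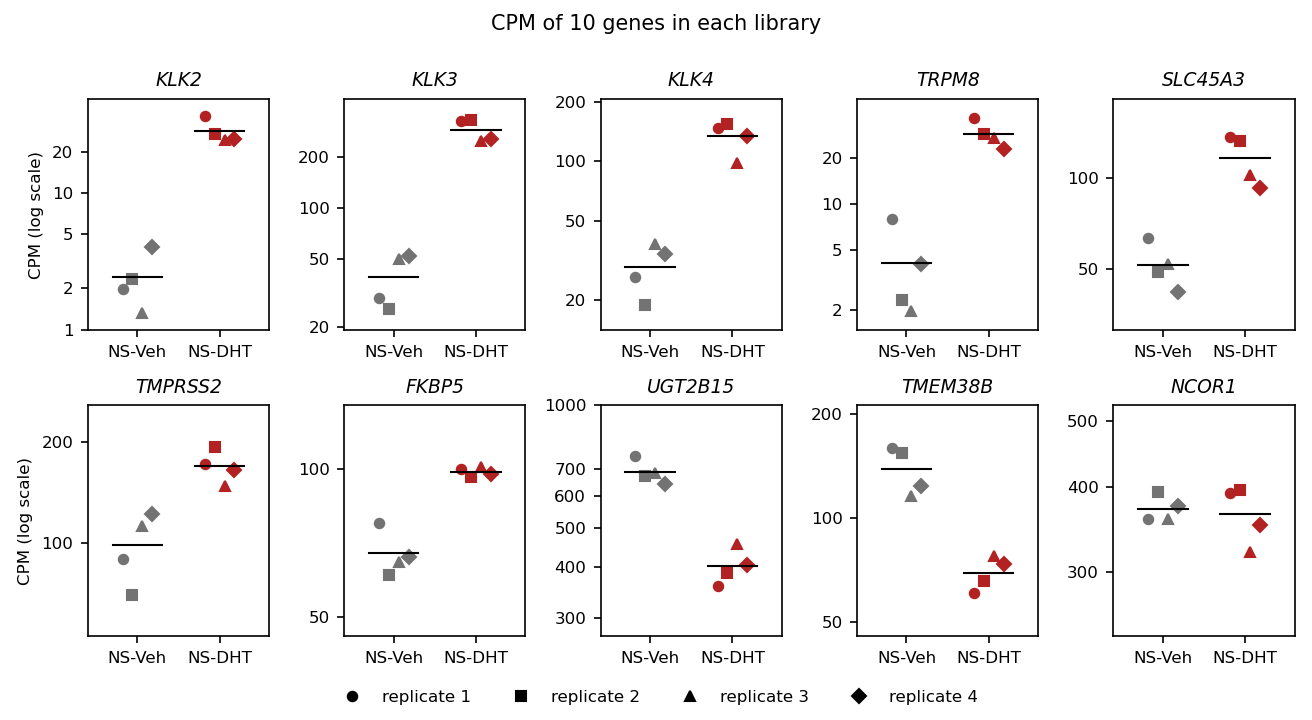
CPM (log scale) of 10 genes in the 4 NS-Veh (grey) and 4 NS-DHT (red) libraries, with a symbol for each replicate number and a line at the group mean. The groups are apart for the 7 raised genes KLK2 to FKBP5 and for the lowered genes UGT2B15 and TMEM38B, while the libraries overlap for NCOR1.

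Most regulators of transcription did not pass the test. Of 20 tested genes for prostate transcription factors and steroid receptor chaperones, 2 were higher and none lower, against 0.849% and 0.463% of all genes. One of them was FKBP5, a chaperone of steroid receptors, which rose from 77.7, 60.8, 64.7 and 66.3 CPM to 99.9, 96.2, 101 and 97.5 CPM (log2 fold change 0.56, SE 0.12, edgeR adjusted p = 0.0051). All 4 DHT libraries lay within 96.2 to 101 CPM, above every vehicle library, but the call held in only 7 of 21 alternative fits. The pioneer factor FOXA1 was at -0.10 (edgeR adjusted p = 0.56) and HOXB13 at -0.10 (adjusted p = 0.67). None of 18 coregulators was called, against 1.31% of all genes, and their log2 fold changes ran from -0.24 to 0.37. NCOR1, a corepressor and the member with the most reads, was at 359 to 393 CPM in NS-Veh and 321 to 396 CPM in NS-DHT (log2 fold change -0.020, SE 0.080, edgeR adjusted p = 0.95), and SLIRP, listed as C14orf156, at 57.8, 58.5, 63.4 and 58.2 CPM and 44.8, 56.2, 56.6 and 61.6 CPM (log2 fold change -0.12, SE 0.14, edgeR adjusted p = 0.78).

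Genes of lipid synthesis rose in part. Of 26 tested cholesterol genes, 3 were higher and none lower, against 0.849% and 0.463% of all genes. FDPS, which makes farnesyl diphosphate, stood at 116, 152, 112 and 142 CPM in NS-Veh and 169.7, 192, 191 and 173 CPM in NS-DHT (log2 fold change 0.50, SE 0.10, edgeR adjusted p = 0.0033). DHCR7, a reductase of the pathway, stood at 189, 219.8, 197 and 217 CPM and 304, 262, 256 and 263 CPM (log2 fold change 0.39, SE 0.09, edgeR adjusted p = 0.0063). The groups were apart in both genes, but the calls held in only 10 (FDPS) and 6 (DHCR7) of 21 alternative fits. The list median was 0.21 and 23 of 26 members had positive values, most of them not past the threshold.

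Of 20 tested genes for fatty acid synthesis and elongation, 2 elongases were called, both higher, against 0.849% of all genes. ELOVL5, which lengthens polyunsaturated fatty acids, rose from 351, 379, 366 and 349.9 CPM to 729.7, 759, 621 and 599 CPM (log2 fold change 0.91, SE 0.08, edgeR adjusted p = 2.32e-09). ELOVL7, which lengthens saturated very-long-chain fatty acids, rose from 19.9, 39.8, 21.1 and 20.2 CPM to 71.8, 53.1, 56.6 and 66.7 CPM (log2 fold change 1.42, SE 0.19, edgeR adjusted p = 1.19e-05), with vehicle replicate 2 far above the other vehicle libraries. FASN, the fatty acid synthase, was at 0.09 (edgeR adjusted p = 0.66) and SCD, the desaturase, at 0.11 (adjusted p = 0.35). The median of the list was 0.19, and 17 of 20 members were positive. Both cholesterol and fatty acid medians were positive within each pair of replicates (0.27 and 0.18, and 0.30 and 0.11).

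Other metabolic lists differed in the share of genes called. SORD, sorbitol dehydrogenase, went from 536, 561, 508 and 485 CPM to 939, 861, 695 and 642 CPM (log2 fold change 0.60, SE 0.09, edgeR adjusted p = 6.48e-05) and was the only call of 34 genes for glycolysis and the citrate cycle, 30 of which had positive values around a median of 0.13. A share of 1 in 34 is near the 1.31% of all genes called. ARG2, a mitochondrial arginase whose product feeds polyamine synthesis, rose by 0.59 (SE 0.10, edgeR adjusted p = 5.11e-04) and SRM, spermidine synthase, by 0.56 (SE 0.12, adjusted p = 0.0045). They were the calls among 12 polyamine genes (16.7%, against 1.31% of all genes). UAP1, which makes UDP-GlcNAc, rose by 0.48 (SE 0.10, edgeR adjusted p = 0.0029), and ST6GALNAC1, which adds sialic acid to O-glycans, by 3.03 (SE 0.49, adjusted p = 2.01e-04). ST6GALNAC1 had 0, 0, 3 and 3 counts in NS-Veh and 16, 22, 17 and 12 counts in NS-DHT, so the size of its rise depends on a total of 6 vehicle counts. The calls of SRM and UAP1 each held in 12 of 21 alternative fits. No other gene of 20 on the glycan list was called, so the share was 10%, against 1.31% of all genes. None of 17 amino acid transporters was called, against the same 1.31%. Of these, SLC38A2 had the most reads (log2 fold change -0.14, SE 0.08, edgeR adjusted p = 0.45).

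Ion channels and transporters moved both ways, with 6 of 24 higher and 4 lower, against 0.849% and 0.463% of all genes. The list joins several families and was chosen with earlier results of these data known. Its share called therefore describes the list and does not measure an excess. Besides TRPM8, KCNMA1, the pore of the BK potassium channel, rose from 85.7, 67.8, 79.3 and 88.1 CPM to 184, 175, 151 and 140.0 CPM (log2 fold change 0.98, SE 0.11, edgeR adjusted p = 8.97e-07). SLC39A10, a zinc importer, rose by 0.81 (SE 0.11, edgeR adjusted p = 7.39e-06), the sodium-proton exchanger SLC9A2 by 0.80 (SE 0.16, adjusted p = 0.0029), the bicarbonate transporter SLC4A4 by 0.58 (SE 0.11, adjusted p = 0.0017) and the SK potassium channel KCNN2 by 0.54 (SE 0.10, adjusted p = 7.80e-04). TMEM38B, a potassium channel of intracellular calcium stores, fell from 159, 154, 116 and 124 CPM to 60.4, 65.4, 77.4 and 73.3 CPM (log2 fold change -0.92, SE 0.12, edgeR adjusted p = 1.19e-05). SLC12A2, which carries sodium, potassium and chloride into the cell, fell from 197, 208, 176 and 217 CPM to 105, 103, 144 and 136 CPM (log2 fold change -0.69, SE 0.11, edgeR adjusted p = 1.39e-04). The plasma membrane calcium pump ATP2B1 (-0.42) and the sodium pump subunit ATP1B1 (-0.34) also fell (edgeR adjusted p = 0.0019 and 0.0017). For each of these 10 genes, the 4 libraries of one group lay apart from those of the other. Of the 10, 5 were called higher and 4 lower in replicates 1 and 2 alone, and 3 higher and 1 lower in replicates 3 and 4 alone.

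A part of the DNA replication genes rose. Of 51 tested genes for replication and nucleotide synthesis, 11 were higher in DHT (21.6%, against 0.849% of all genes) and none lower, and 49 had positive values around a median log2 fold change of 0.57. RRM2, the small subunit of ribonucleotide reductase, stood at 35.9, 32.7, 64.1 and 63 CPM in NS-Veh and 95.8, 104, 134 and 150.2 CPM in NS-DHT (log2 fold change 1.15, SE 0.16, edgeR adjusted p = 2.10e-05). The clamp PCNA stood at 61.7, 60.8, 99.1 and 78.4 CPM and 137, 103, 149.7 and 152 CPM (log2 fold change 0.74, SE 0.14, edgeR adjusted p = 0.0011). In both genes replicates 3 and 4 were above replicates 1 and 2 within each treatment, and the DHT libraries were above all vehicle libraries.

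Called subunits of the replicative helicase included MCM2 (0.96), MCM3 (0.79) and MCM6 (0.62), with edgeR adjusted p-values of 0.004, 0.0076 and 0.0084, while MCM5 (0.78, adjusted p = 0.047) and MCM7 (0.52, adjusted p = 0.049) did not reach the threshold. MCM10, which helps start the fork, had 4, 8, 19 and 10 counts in NS-Veh and 25, 25, 53 and 42 in NS-DHT (log2 fold change 1.44, SE 0.29, edgeR adjusted p = 0.0029). Its CPM in vehicle replicate 2 (18.7) nearly reached that of DHT replicate 2 (19.2). FEN1, the flap nuclease, rose by 0.93 (SE 0.20, edgeR adjusted p = 0.0058) and the single-strand binding subunit RPA2 by 0.94 (SE 0.19, adjusted p = 0.0027). FEN1 shares exon bases with FADS2 in the annotation, and the strand of counting is not given in the sources used here, so reads of such pairs may not be told apart. The same holds for TMPRSS2 (with MX1), PPAP2A (MTREX), NCOR1 (PIGL and TTC19), ARG2 (VTI1B), ATP1B1 (NME7), CENPN (CMC2), ERBB2 (MIEN1 and PGAP3), MFSD6 (NEMP2), BRP44 (DCAF6) and SLIRP (SNW1). The list had 5 calls in replicates 1 and 2 alone and 6 in replicates 3 and 4 alone, all higher, with medians of 0.62 and 0.61, and 21 with the pair of replicates as a term. Calls among all genes were likewise fewer in each pair alone than in the main comparison, and more with the pair as a term. The call of MCM10 held in 11 of 19 alternative fits.

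**Figure D3:**
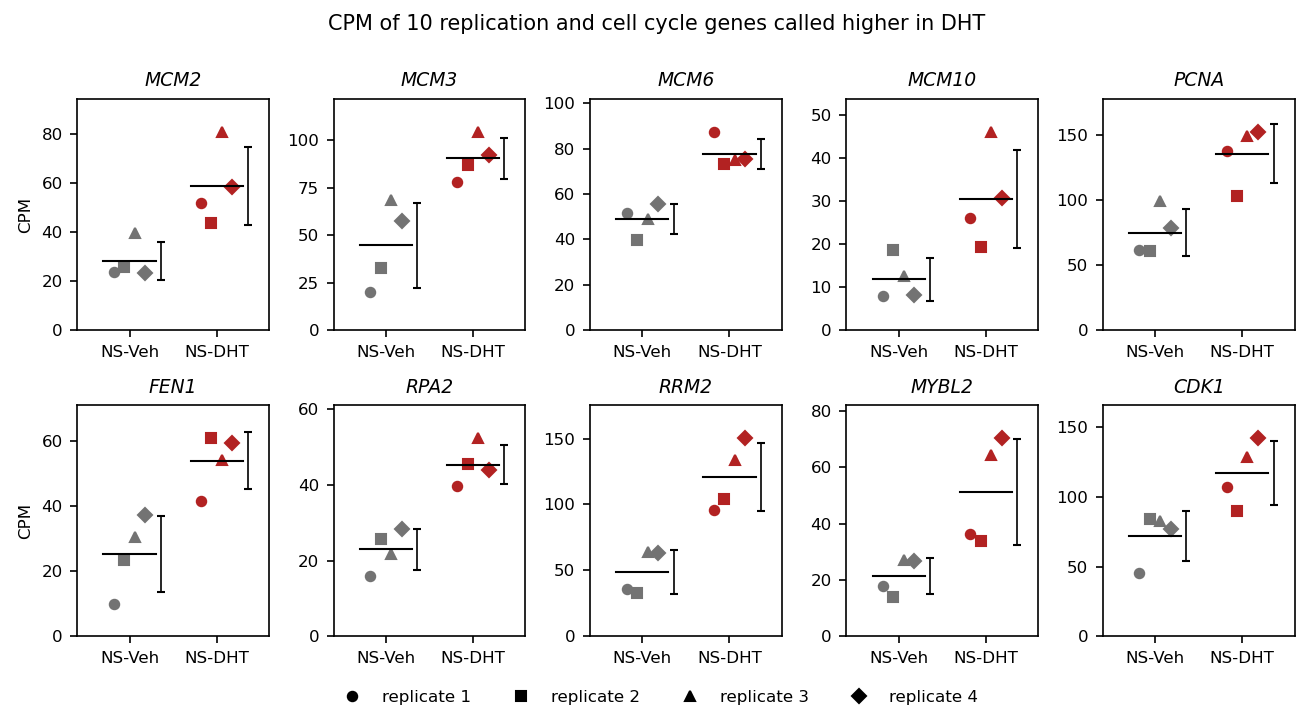
CPM (linear scale from 0) of 10 replication and cell cycle genes called higher in DHT, in the 4 NS-Veh (grey) and 4 NS-DHT (red) libraries; lines mark group means and bars 1 SD over 4 libraries. The DHT libraries are above the vehicle libraries in each panel, by little in MCM10, PCNA and CDK1.

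Promoters of 2 helicase genes are shown because E2F words, which the choice of the list did not use, were frequent in the promoters of replication genes. Capitals mark words of the E2F type, searched on both strands as TTTCCCGC, TTTCGCGC, TTTGCCGC and TTTGGCGC; matches may overlap, as at both places in MCM6, where TTTGGCGC runs into the reverse complement of TTTCGCGC. The windows are RefSeq promoters on GRCh38.p14, MCM6 at chr2:135876394-135876693 and MCM3 at chr6:52284693-52284992, both on the minus strand.
MCM6: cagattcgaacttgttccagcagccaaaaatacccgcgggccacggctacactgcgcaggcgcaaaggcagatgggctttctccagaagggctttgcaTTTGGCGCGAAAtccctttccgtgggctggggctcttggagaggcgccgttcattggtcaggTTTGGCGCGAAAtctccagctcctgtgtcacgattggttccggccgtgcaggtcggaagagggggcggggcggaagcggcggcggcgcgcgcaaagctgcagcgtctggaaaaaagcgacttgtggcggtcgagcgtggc
MCM3: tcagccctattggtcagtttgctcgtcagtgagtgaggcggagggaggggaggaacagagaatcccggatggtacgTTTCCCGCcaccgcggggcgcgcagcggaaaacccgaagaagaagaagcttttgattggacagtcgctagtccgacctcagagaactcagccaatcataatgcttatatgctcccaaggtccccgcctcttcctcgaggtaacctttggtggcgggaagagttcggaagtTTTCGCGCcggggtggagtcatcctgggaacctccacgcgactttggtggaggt
Such a word was in a promoter of 22 of 43 replication genes with a window (51.2%), in 9 of 66 raised genes (13.6%), 1 of 36 lowered genes (2.78%) and 587 of 8450 tested genes (6.95%), and in 3.31% of all windows. A match is a description of the window and not a bound site.

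Some histone and mitosis genes were also higher in DHT. All 37 tested replication-dependent histone genes had positive values, with a median of 0.63, and 5 were called higher (0.849% of all genes were). Weakly read members could enter the test through their NS-DHT libraries. HIST1H2BM, for example, had 0, 0, 4 and 12 counts in NS-Veh and 12, 13, 15 and 34 in NS-DHT. The sign counts and medians of the histone and mitosis lists can lean toward rises for this reason, and by how much was not tested. HIST2H3C stood at 15.9, 25.7, 35 and 38 CPM in NS-Veh and 69.7, 53.1, 102 and 76.2 CPM in NS-DHT (log2 fold change 1.23, SE 0.20, edgeR adjusted p = 1.53e-04), and HIST1H3B at 15.9, 16.4, 34.3 and 36.4 CPM and 44.8, 47.7, 82.7 and 83.5 CPM (log2 fold change 1.13, SE 0.22, edgeR adjusted p = 0.0019). Histone genes are near copies of each other, so reads may be divided among them, and single members are uncertain. Of 48 mitosis genes, 4 were higher and none lower, against 0.849% and 0.463% of all genes, with a median of 0.41 and 47 positive. CENPN, a centromere protein, rose by 0.92 (SE 0.13, edgeR adjusted p = 3.71e-05), MYBL2, a cell cycle transcription factor, by 1.12 (SE 0.23, adjusted p = 0.0038), NCAPH, a condensin subunit, by 1.22 (SE 0.26, adjusted p = 0.0058) and CDK1, the mitotic kinase, by 0.65 (SE 0.14, adjusted p = 0.0077). The calls of MYBL2 and NCAPH held in 10 of 20 and 10 of 18 alternative fits, and that of HIST1H3B in 13 of 20. MKI67, the proliferation marker, was at 0.52 (edgeR adjusted p = 0.087) and TOP2A at 0.46 (adjusted p = 0.34). In replicates 3 and 4 alone, 8 histone and 8 mitosis genes were called, and in replicates 1 and 2 alone 1 of each, while 16 and 13 were called with the pair of replicates as a term. Of all genes, too, fewer were called in each pair alone than in the main comparison, and more with the pair as a term. The D cyclin CCND1 did not pass the test (0.03, edgeR adjusted p = 0.89), and of its list of 25 only the receptor tyrosine kinase ERBB2 was called, lower in DHT at 412, 430.3, 392 and 412 CPM in NS-Veh and 348, 318, 298 and 308 CPM in NS-DHT (log2 fold change -0.37, SE 0.07, edgeR adjusted p = 0.0033). Its call held in 11 of 21 alternative fits. Of 46 nucleolar genes, 1 was called, the phosphoprotein NOLC1 (log2 fold change 0.44, SE 0.09, edgeR adjusted p = 0.0021), a call that held in 12 of 21 alternative fits. None of 34 interferon-stimulated genes was called. Both shares were near the 1.31% of all genes called.

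**Figure D4:**
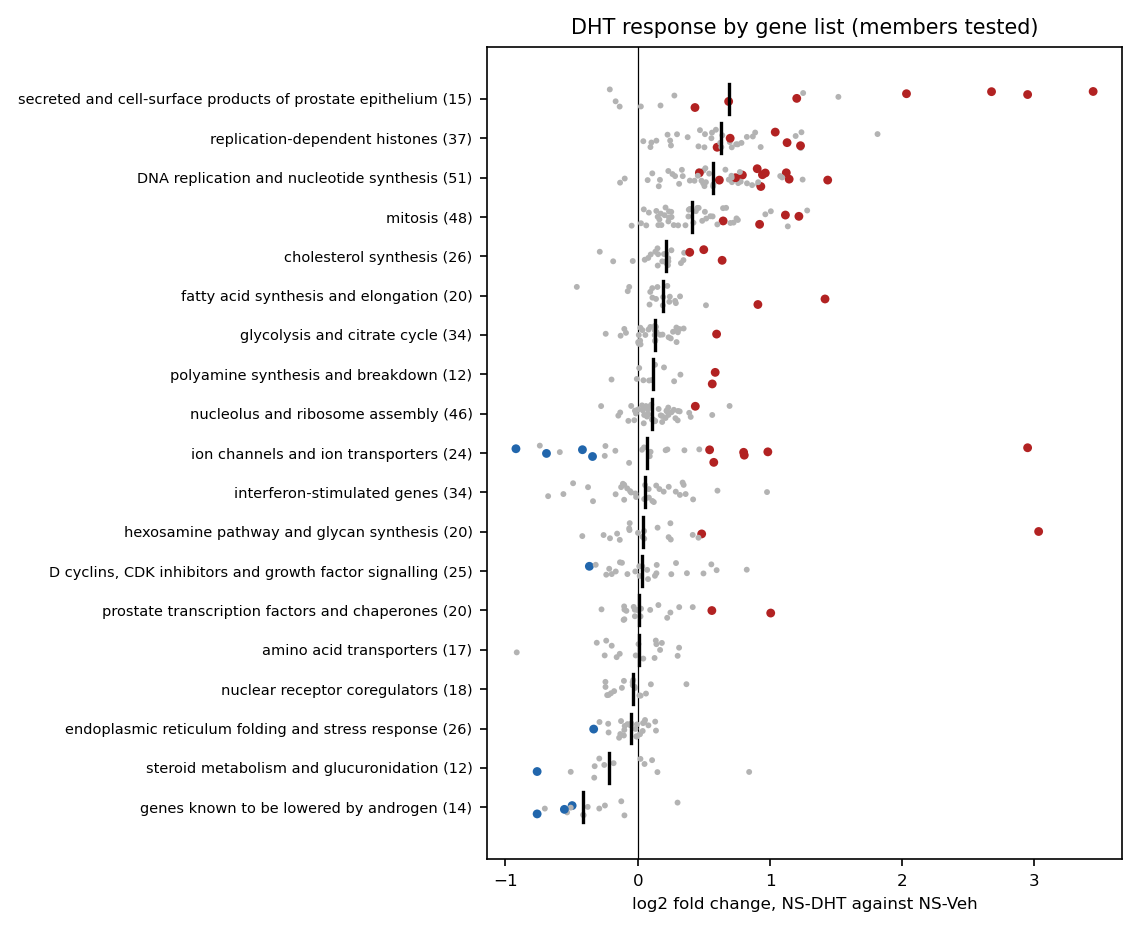
Log2 fold change of each tested member (points) of 19 gene lists, ordered by the list median (black bars), with the number of members tested in parentheses. Red and blue points were called higher and lower at an edgeR FDR of 0.01 and grey points were not; the medians run from -0.41 for genes known to be lowered by androgen to 0.69 for secreted and surface products.

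Large rises were also found outside the lists. FAM111B, a protease of replicating cells, went from 19.9, 23.4, 45.6 and 33.9 CPM to 90.6, 98.5, 117 and 96 CPM (log2 fold change 1.52, SE 0.16, edgeR adjusted p = 1.78e-07). ZNF367, a zinc finger factor, went from 3.98, 9.35, 19.2 and 12.1 CPM to 45.8, 35.4, 48.7 and 43.2 CPM (log2 fold change 1.68, SE 0.24, edgeR adjusted p = 2.99e-05), and AADAT, an aminotransferase of lysine and tryptophan breakdown, from 21.9, 16.4, 27.1 and 19.4 CPM to 53.1, 56.9, 42.6 and 59.4 CPM (log2 fold change 1.25, SE 0.19, edgeR adjusted p = 6.55e-05). All 3 had separated groups, and ZNF367 moved by 2.60 in replicates 1 and 2 and by 1.51 in replicates 3 and 4. Chosen after their values were seen, BRP44, a subunit of the mitochondrial pyruvate carrier, rose by 0.86 (SE 0.09, edgeR adjusted p = 7.17e-08), MCCC2, a leucine-breakdown carboxylase, by 0.66 (SE 0.08, adjusted p = 1.84e-06) and the efflux pump ABCC4 by 0.66 (SE 0.09, adjusted p = 1.36e-05).

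Of the genes known to be lowered by androgen, a few fell, by modest amounts. Of 14 tested, 3 were lower and none higher, against 0.463% and 0.849% of all genes. The list had a median of -0.41 and 13 negative values. UGT2B15, which inactivates androgens by adding glucuronic acid, stood at 751, 671, 684 and 639.9 CPM in NS-Veh and 361, 387, 457 and 405 CPM in NS-DHT (log2 fold change -0.76, SE 0.08, edgeR adjusted p = 4.32e-08). It is a near copy of other UGT2B genes, so reads may be shared, and UGT2B10 (-0.29) and UGT2B11 (-0.51) had adjusted p-values of 0.71 and 0.34 in edgeR. DDC, an aromatic amino acid decarboxylase, stood at 327, 377, 225 and 263 CPM and 201, 196, 188 and 183 CPM (log2 fold change -0.55, SE 0.11, edgeR adjusted p = 0.0019), and CAMK2N1, an inhibitor of CaM kinase II, at 679, 678, 633 and 704 CPM and 418, 447, 503 and 533 CPM (log2 fold change -0.50, SE 0.07, edgeR adjusted p = 6.48e-05). The groups were apart in all 3 genes, and the falls were greater in replicates 1 and 2 (-0.93, -0.82 and -0.64) than in replicates 3 and 4 (-0.63, -0.39 and -0.37). Among 12 tested genes of steroid metabolism UGT2B15 was the only call, while STS, steroid sulfatase, was at 0.84 (edgeR adjusted p = 0.013) with DHT libraries of 37.4 to 51 CPM above vehicle libraries of 17.8 to 29.7 CPM.

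The other leading falls were spread over unrelated functions. SORL1, a sorting receptor, fell from 109.6, 109.9, 73.3 and 87.3 CPM to 46.8, 61.5, 50.5 and 51.3 CPM (log2 fold change -0.76, SE 0.15, edgeR adjusted p = 0.0018). SNRK, a kinase related to AMPK, fell from 153, 161, 131 and 142 CPM to 86.4, 93.1, 84.4 and 79.1 CPM (log2 fold change -0.74, SE 0.11, edgeR adjusted p = 3.75e-05), and ADD3, an adducin of the membrane skeleton, from 199, 173, 149.9 and 104 CPM to 98.9, 92.3, 88.8 and 85 CPM (log2 fold change -0.70, SE 0.13, edgeR adjusted p = 0.0017). In each, every DHT library was below every vehicle library. MFSD6 (-0.68) and NIPSNAP3A (-0.67) also fell (edgeR adjusted p = 0.003 and 7.39e-06). HSPA5, the chief chaperone of the endoplasmic reticulum, stood at 856 to 951 CPM in NS-Veh and 701 to 748 CPM in NS-DHT (log2 fold change -0.33, SE 0.06, edgeR adjusted p = 0.0015). It was the only call of 26 genes for folding and stress in that compartment, near the 1.31% of all genes called. The 2 falls of at least 2-fold were PRKCA, protein kinase C alpha, at 37.8, 35.1, 32.4 and 41.2 CPM in NS-Veh and 15.6, 15.4, 14.8 and 12.5 CPM in NS-DHT (log2 fold change -1.33, SE 0.21, edgeR adjusted p = 1.53e-04), and GAGE4, both named after their values were seen. GAGE4 belongs to a family of near-identical copies and jumped between 0 and 122 CPM within NS-Veh, so its call is uncertain.

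The DHT response was compared between siRNAs to ask whether it differed in cells with lowered SLIRP. In the separate SLIRP siRNA libraries, DHT changed 125 of 10677 genes (1.17%), 68 higher and 57 lower. Of the 135 genes called in NS cells that could be tested there, 135 had a fold change of the same sign and 69 were themselves called. The rises were smaller there for 68 of 87 raised genes (median 0.48), and the falls for 23 of 48 lowered genes (median -0.50). These genes were chosen by their values in NS cells.

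No gene passed the test of the difference itself (0%, 0 of 10677 in edgeR at an FDR of 0.01; lowest adjusted p 0.9997). At an unadjusted p below 0.05, 388 genes differed in edgeR and 197 in DESeq2, which also called 0, and chance gives 534. KLK3 rose by 2.68 in NS and 1.95 in SLIRP siRNA cells, and the 4-group model gave a difference of 0.74 (SE 0.19, edgeR unadjusted p = 4.45e-04). KLK4 rose by 2.03 and 1.33, and the model gave a difference of 0.72 (SE 0.26, edgeR unadjusted p = 0.0078). Neither difference was called. For RRM2 the values were 1.15 and 0.54, for UGT2B15 -0.76 and -0.80, and for ELOVL7 1.42 and 1.82. The median of the replication list was 0.57 in NS and 0.40 in SLIRP siRNA cells, and that of the histone list 0.63 and 0.35.

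**Figure D5:**
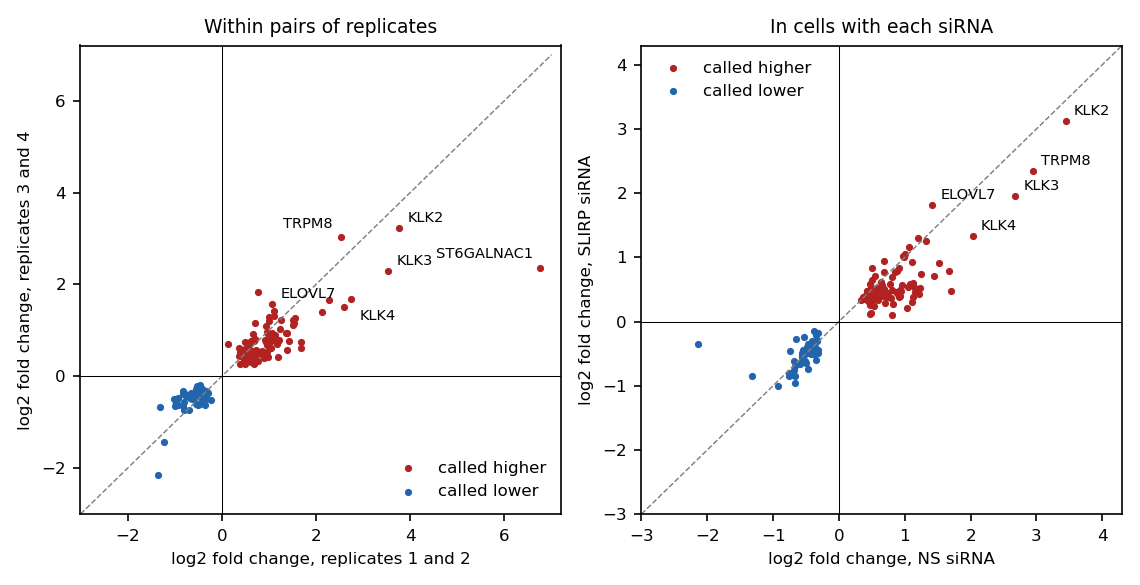
Log2 fold changes in DHT of the genes called in NS cells (red higher, blue lower): left, NS replicates 1 and 2 (x axis) and 3 and 4 (y axis); right, NS (x axis) and SLIRP siRNA cells (y axis). Dashed lines mark equal values; KLK3 and KLK4 lie below the line in both panels, and the point at 6.76 on the left is the x value of ST6GALNAC1, which had 0 counts in NS-Veh replicates 1 and 2.

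Within the NS libraries, DHT changed 89 genes in replicates 1 and 2 alone (53 higher, 36 lower) and 107 in replicates 3 and 4 alone (70 higher, 37 lower), of which 66 and 72 were among the 136. The raised genes had a median log2 fold change of 0.90 in replicates 1 and 2 and 0.70 in replicates 3 and 4, and the lowered genes -0.56 and -0.46. The change was greater in replicates 1 and 2 for 94 of 136 genes. These replicates held the shallow vehicle libraries, and the part of depth in this was not tested. A test of the difference between the pairs called 1 gene, FAM21A, which was not called for DHT.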

How the data were processed

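RNA of 16 LNCaP libraries, 4 in each of 4 groups, was sequenced from one end (50 bases). The authors used hg19, and their deposited table holds whole-number estimated counts of 20531 entries, 29 without a symbol (0.0305% to 0.0393% of counts in an NS library), which were left out. CASAVA and RSEM are named in the submitters' processing notes without versions; the annotation and strand setting are not given in the sources used here. The deposited normalized table of 13148 genes holds a linear score, the estimated counts divided by the upper quartile of a library and rescaled by a constant. NS libraries held 436353 to 1521674 counts. A level of 3 counts, 1.97 to 6.88 CPM depending on the library, was taken as the floor of detection, for counting error alone. Replicates are the labels' separate samples, from 2 experiments with 2 biological replicates each. The main fit had no term for experiment and took the samples as independent. Its p-values therefore measure the spread within and between experiments together.

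The 8 NS libraries were compared in R 4.3.3 with edgeR 4.0.16 (TMM, filterByExpr, glmQLFit and glmQLFTest, no covariate), at an FDR of 0.01, adjusted by Benjamini-Hochberg across every tested gene. Standard errors were derived from the log2 fold change and the F statistic. The difference in response between siRNAs was a contrast of a 4-group model over 16 libraries. The study itself used SAM. Alternatives were DESeq2 1.42.0, limma 3.58.1 on the normalized table (pseudocounts 1 and 10), other normalizations, filters and thresholds, thinned counts, a replicate block and leaving out each library. Restricting the comparison to replicates 1 and 2 or 3 and 4, adding the pair as a term and testing the difference between pairs were chosen after seeing the data. The models were also run on simulated counts of independent libraries, with the same dispersion for every gene and changes placed only in better read genes. The simulation held no pairs of replicates, so it does not test the calls of weakly read genes or the effect of the pairs.

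Gene lists, markers and the comparison were chosen with earlier results of these data known. Genes were named as the 10 largest rises and 10 largest falls among called genes with separated groups and 30 or more counts on average, up to 3 called members of each list (or the member with the most reads), and KLK2, KLK3, KLK4, TMPRSS2, FKBP5 and SLIRP among other fixed names. Other list members are named as context. Some genes these rules choose are not reported one by one here but remain in tests and counts. Positions are from GENCODE on GRCh37, the build of hg19, and promoter sequences and motif words from RefSeq windows on GRCh38.p14, which matched 8450 of 10360 tested genes by Entrez identifier; windows of chromosome 8 were not used here. Figures used matplotlib 3.10.9 in Python 3.11.15.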

Additional observations from a re-analysis of the deposited data

Results flagged for a closer look

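Among 104 groups of 4 libraries (52 genes in 2 groups), a library stood apart from the other 3 by Dixon's test at 95% in 4, where chance gives about 1 in 20, and 3 of the 4 are given here. ELOVL7 stood at 39.8 CPM in NS-Veh replicate 2, against 19.9, 39.8, 21.1 and 20.2 CPM in the 4 libraries, and its log2 fold change ran from 1.07 to 1.58 over the alternatives. DHCR7 stood at 303.9 CPM in NS-DHT replicate 1, against 304, 262, 256 and 263 CPM. SLIRP, listed as C14orf156, stood at 63.4 CPM in NS-Veh replicate 3, against 57.8, 58.5, 63.4 and 58.2 CPM. FAM21A differed between the pairs of replicates, with a DHT effect that was 9.34 higher on the log2 scale in replicates 1 and 2 than in replicates 3 and 4 (edgeR adjusted p = 3.12e-05). It had 0, 0, 119 and 105 counts in NS-Veh and 86, 53, 101 and 65 in NS-DHT, so the fitted value rests on 2 libraries at 0, and the gene has near-identical copies among which reads may be divided.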

How the results depend on the processing

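Of the 136 genes, 90 were also among 91 called by DESeq2, 133 among 134 with RLE normalization, 128 among 136 with upper-quartile normalization (80 higher, 56 lower), 105 among 116 in the 4-group model, 115 among 132 with at least 10 counts in every library and 77 among 92 with thinned counts. Counts that moved by over 1.5 times were 236 with no filter on low counts, 279 at an FDR of 0.05, 52 and 57 with limma on the normalized table (pseudocounts 1 and 10, all of them among the 136), 89 in replicates 1 and 2 alone and 293 with the pair of replicates as a term, the last 2 settings chosen after seeing the data. Leaving out 1 library gave 83 to 114 genes, 83 without NS-Veh replicate 1 and 87 without NS-Veh replicate 2, the shallow libraries. With a replicate block the count was 275 (173 higher, 102 lower), including all 136, and for the difference between siRNAs 0. The numbers were not taken to pair the samples, since deviations from the group means correlated across 7013 genes by 0.14, 0.039, 0.10 and 0.18 for replicates 1 to 4, and NS-Veh replicate 2 and NS-DHT replicates 2 and 3 correlated better with another number than with their own. The difference between siRNAs was 0 genes under every alternative except without NS-DHT replicate 2 (range 0 to 1), where EIF3C was called, a gene with 0 counts in several libraries and a near-identical copy. Over 18 planned fits, 33 of the 136 were called in all (21 higher, 12 lower), KLK3, ELOVL5, ELOVL7, RRM2, UGT2B15 and TMEM38B among them. Genes that some fits did not test are not among the 33. KLK2 and TRPM8 kept their call in 18 of 18 fits that tested them, and KLK4 in 20 of 20. For the 47 called genes named by the rules, 787 of 963 values kept their call, 176 lost it and none changed sign. FKBP5 kept its call in 7 of 21 fits and DHCR7 in 6 of 21. Values near 0 changed sign for SLIRP (listed as C14orf156), 0.0060 with thinned counts, and for NCOR1, 0.036 without NS-DHT replicate 3 (-0.066 to 0.036 when leaving out 1 library) and 0.073 in replicates 1 and 2 alone. Depth limits weakly read genes most, and changes under about 2-fold in genes below 30 counts were rarely called.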

Other observations

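Without the filter on low counts, 100 further genes were called, of which 86 had been tested before. Among the rest, F5, coagulation factor V, had 1, 0, 1 and 2 counts in NS-Veh and 12, 15, 11 and 11 in NS-DHT, and MAN1A1, a Golgi mannosidase, had 7, 7, 13 and 8 counts in NS-Veh and 3, 2, 4 and 1 in NS-DHT. CENPK, a kinetochore protein, had 1, 1, 4 and 4 counts in NS-Veh and 10, 8, 19 and 16 in NS-DHT. These genes were named after their values were seen.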
